A study of Rattus norvegicus with 8 samples.

Results

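The I diet contained inulin, a fructan from chicory, and was compared with the standard purified reference diet (REF) in the colon of female Wistar rats, labelled as 6 weeks old, after 3 weeks of diet. The comparison covered the 4 I rats and the 4 REF rats among the 16 rats that were hybridised, and all 19901 genes that gave a usable signal. The other 8 rats had received a diet with cocoa (C10, 4 rats) or with cocoa fiber (CF, 4 rats). The formulas of the I and REF diets shared the same purified base and cellulose, and inulin was given in the amount of the soluble fiber that the cocoa diet supplied. RNA came from a short piece of mid colon that was not divided into layers, as far as the methods say, so that a lower signal from fewer cells of a type cannot be told apart from less RNA per cell. Each rat gave 1 piece of colon. The question was which colonic genes differ when a purified soluble fiber without cocoa is added to the diet.

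Inulin is not digested in the small intestine. Bacteria of the large bowel ferment it to short-chain fatty acids, which colonocytes take up through transporters such as Slc5a8 and the monocarboxylate carriers and burn as fuel. Short-chain fatty acids also act on receptors such as Ffar2 and Ffar3 and inhibit histone deacetylases. Immediate-early genes are transcribed within minutes of a stimulus such as a growth factor or stretch. They encode transcription factors (Fos, Atf3, Nr4a1) and short-lived regulators of signalling.

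Each Agilent array held the RNA of 2 rats in 2 dyes, and each rat was read on 1 array in 1 dye. I rats 1 and 3 and REF rats 2 and 4 carried Cy5, and the other 4 rats carried Cy3. I rats 3 and 4 shared arrays 7 and 8 with REF rats 3 and 4, whereas I rats 1 and 2 shared arrays 5 and 6 with CF rats, and REF rats 1 and 2 shared arrays 1 and 2 with C10 rats. Arrays 1 to 4 and 5 to 8 formed the rows of a single slide, so the I rats were all in the second row, and arrays 5 to 8 were also fitted alone. The difference moved by more than 1.5 times in that fit for 17 of the 84 genes named, and with any 1 rat left out for 36; such values stand beside the genes that the results turn on. Between 70.5 and 77.8 % of the spots were well above background in I rats, and between 68.6 and 83.9 % in REF rats. Values of single rats are given as normalized log2 signals with the dye effect removed, on which a step of 1 is a doubling. The difference between diets is the fitted log2 difference, I minus REF, with its standard error (SE). The fit gives more weight to rats of both diets on the same array, so it need not equal the difference between the means of the rats. A gene was called when its p adjusted over all genes was below 0.05 and the difference was at least 2-fold.

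The pieces were from mid colon by the methods, and 14 of 16 listed epithelial genes of the colon were measured. The log2 signal of Lgals4, a lectin of the intestinal epithelium, was 15.98 to 16.45 in the 8 rats, that of Epcam 14.66 to 15.23, that of Cdx2, a transcription factor of the hindgut, 13.41 to 14.19, and that of the small-intestinal lactase Lct only 6.34 to 6.66, near the lowest signal that counts as above background (5.86 to 6.21). Lct was 1 of 16 measured genes of a small-intestinal list, whose mean log2 signal was higher, 8.49 to 8.81 in the 8 rats. The mean of the 14 colon genes was 13.29 to 14.08. Muc2 and Cdx1 were not measured. The pieces were not alike in 2 respects. Hoxb13, a homeobox gene that marks the most distal hindgut, had a log2 signal of 13.65, 10.11, 13.37 and 12.77 in I rats 1 to 4 and of 13.28, 12.22, 14.15 and 6.46 in REF rats 1 to 4. REF rat 4 was thus far below all others and I rat 2 was the next lowest. The mean log2 signal of 17 measured B-cell genes spread over 7.21 to 9.40 in the I rats and over 7.12 to 9.24 in the REF rats, so that pieces of the same diet differed widely in their B-cell signal. The part of these differences among pieces in the results was not tested beyond the alternatives given beside them.

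With the test across all genes, 0 of 19901 genes (0 %) were called between the I and REF diets, and the lowest adjusted p in limma was 0.483. Rank product, the test named in the methods, which compares ranks of the differences between single rats without terms for array or dye, picked 71 genes at an estimated share of false positives below 0.05 (0.357 %), 27 higher in I (0.136 %) and 44 lower (0.221 %), and 30 of them were at least 2-fold apart (0.151 %), 16 higher and 14 lower. Of the 71 genes, 35 had an unadjusted p below 0.05 in limma, and the rats of the diets did not overlap for 14. Among the genes described here, it picked Retnlb, Retnla, Mptx1, Pou2af1, Ccl19, Clca4, Aqp8, Nr1d1 and Banp as higher in I. At an unadjusted p below 0.05 there were 1136 genes (5.71 % of those tested), 591 higher in I (2.97 %) and 545 lower (2.74 %). A difference of at least 2-fold was seen in 36 genes (0.181 %), 21 higher (0.106 %) and 15 lower (0.0754 %) in the I group, and 17 of these had an unadjusted p below 0.05. The 4 rats of the diets did not overlap for 563 genes (2.83 %), 294 of them higher in I (1.48 %) and 269 lower (1.35 %). By order alone, 4 rats against 4 separate in a share of 0.0286, the smallest p of the exact two-sided permutation test. The share seen was close to this, so a lack of overlap in 1 gene is not by itself a mark of the diet. Only 6 genes met the size and the non-overlap together, and all 6 were lower in the I group: the transcription factor genes Atf3 and Nr4a1, Rec114, Serpina10 and the 2 transcripts known by identifier A_64_P151259 (-1.39, SE 0.32) and ENSRNOT00000001579 (-1.09, SE 0.28). Of the 21 genes at least 2-fold higher, 0 separated the diets. Without REF rat 3, 99 genes were at least 2-fold apart, and with the signals processed by the scanner software 120. The median difference over all genes was 0.01, with 52.5 % of genes higher in I.

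**Figure D1:**
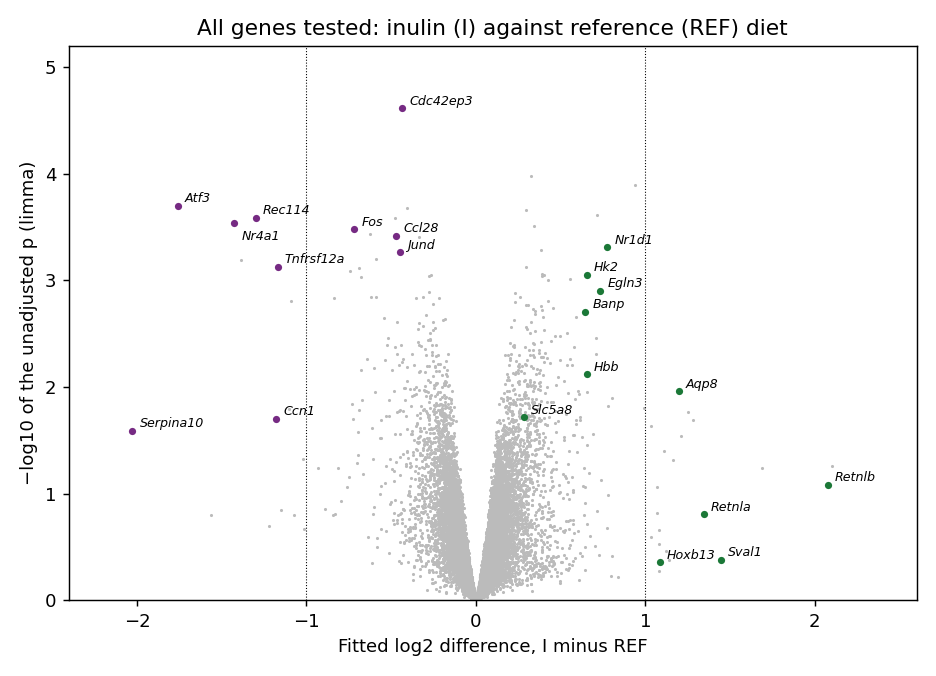
Each point is 1 of 19901 genes, with the fitted log2 difference (I minus REF) on the horizontal axis and -log10 of the unadjusted limma p on the vertical axis; dotted lines mark a 2-fold difference, and named genes are green where higher in I and purple where lower. Atf3, Nr4a1 and Rec114 combine a large difference with a low p on the lower side, whereas the largest positive differences, such as that of Retnlb, have a higher p.

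Immediate-early genes were mostly lower in the I rats, although none passed the adjusted threshold of limma in the fit of all 16 rats. Rank product picked 6 of the 32 measured members as lower (44 of all genes, 0.221 %) and 0 as higher, the 6 being Atf3, Nr4a1, Tnfrsf12a, Ccn1, Fos and Rgs4. Atf3, a stress-induced transcription factor, had a log2 signal of 10.54, 9.86, 9.71 and 9.90 in the I rats and of 11.88, 11.85, 11.58 and 11.44 in the REF rats. The diets were separated by a gap wider than the spread within either, and the fitted difference was -1.76 (SE 0.35), that is a signal of 0.295 times that of REF. Its adjusted p in limma was 0.522, and the exact two-sided permutation test gave 0.0286, the smallest p that 4 rats against 4 allow. Nr4a1, an orphan nuclear receptor induced within minutes of stimulation, was at 10.34, 9.85, 10.06 and 9.66 in the I rats and at 11.10, 10.99, 11.78 and 11.29 in the REF rats. Its difference was -1.43 (SE 0.30, adjusted p 0.522 in limma), again without overlap. Fos, a subunit of the AP-1 transcription factor, was lower in every I rat (8.64, 8.70, 8.85 and 8.91) than in any REF rat (9.22, 9.66, 9.47 and 9.62), with a difference of -0.72 (SE 0.15).

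The partner of Fos, Jund, had log2 signals of 13.91, 13.64, 13.65 and 13.47 in the I group and of 13.88, 13.99, 14.25 and 14.11 in the REF group. Only I rat 1 reached into the REF range, and the difference was -0.45 (SE 0.10). Regulators of G-protein signalling came next: Rgs2 was at 11.35, 11.20, 11.62 and 11.40 in I rats and at 11.63, 11.83, 12.81 and 11.93 in REF rats, a narrow gap with a difference of -0.64 (SE 0.19) that was -0.30 without REF rat 3, whose signal was the highest. Rgs1 (-0.73, SE 0.26) and Rgs4 (-0.70, SE 0.31) overlapped between the diets. Tnfrsf12a, the receptor of the cytokine TWEAK and a growth-factor-induced gene, was at 10.23, 9.44, 9.35 and 9.15 in the I rats and at 11.25, 11.47, 10.26 and 10.21 in the REF rats, a difference of -1.17 (SE 0.27) in which only I rat 1 touched the REF values. Ccn1, a matrix protein induced by serum and stretch, differed by -1.18 (SE 0.45), but I rat 1, at 10.76, lay above REF rats 1, 2 and 4 (10.32, 10.004 and 10.43), and without REF rat 3 (11.35) the difference was -0.71.

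Over the whole list of immediate-early and stress-response genes, 32 of 35 were measured, and 25 were lower in I and 7 higher. The median difference was -0.33, against 0.01 over all genes. At an unadjusted p below 0.05, 10 were lower and 1 was higher, that is 34.4 % of the list against 5.71 % of all genes. The diets did not overlap for 6 members (18.8 % against 2.83 % of all genes), and 4 were at least 2-fold lower. Without REF rat 3 the median was -0.17. The mean log2 signal of the list was 9.63 to 9.85 in the 4 I rats and 9.96 to 10.16 in the 4 REF rats, which do not overlap. The other members did not share the size of this difference: Egr1, the early growth response factor, differed by -0.36 (SE 0.23) and overlapped, Jun by -0.05, and Myc, a driver of growth, by 0.28. Hsph1, a heat shock protein, was the only member higher at an unadjusted p below 0.05, at 8.28, 8.07, 8.24 and 8.17 in the I rats and at 7.92, 7.96, 7.72 and 7.66 in the REF rats (0.38, SE 0.13). The list was written with earlier results of these data known, so its count describes these rats.

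For Atf3, Nr4a1 and Fos the difference was of similar size on both arrays that held both diets. In arrays 5 to 8 alone, the fitted difference was -1.64 for Atf3, -1.64 for Nr4a1 and -0.69 for Fos. For Atf3, I minus REF was -1.87 on array 7 and -1.55 on array 8, for Nr4a1 it was -1.73 and -1.63, and for Fos -0.62 and -0.70. In a fit of the 8 I and REF rats alone, 4 genes were called (0.0201 %), which were Atf3 (-1.70, SE 0.12, adjusted p 0.0121 in limma), Nr4a1 (-1.53, SE 0.14, adjusted p 0.0224), Rec114 (-1.18, SE 0.13, adjusted p 0.0378) and A_64_P151259, and Fos had an adjusted p of 0.0302 with a difference under 2-fold. That fit took the correlation between the rats of an array, 0.738, from only 2 arrays. With the correlation of 0.42 estimated on all 16 rats, 0 genes were called in the same 8 rats, and the lowest adjusted p was 0.127.

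**Figure D2:**
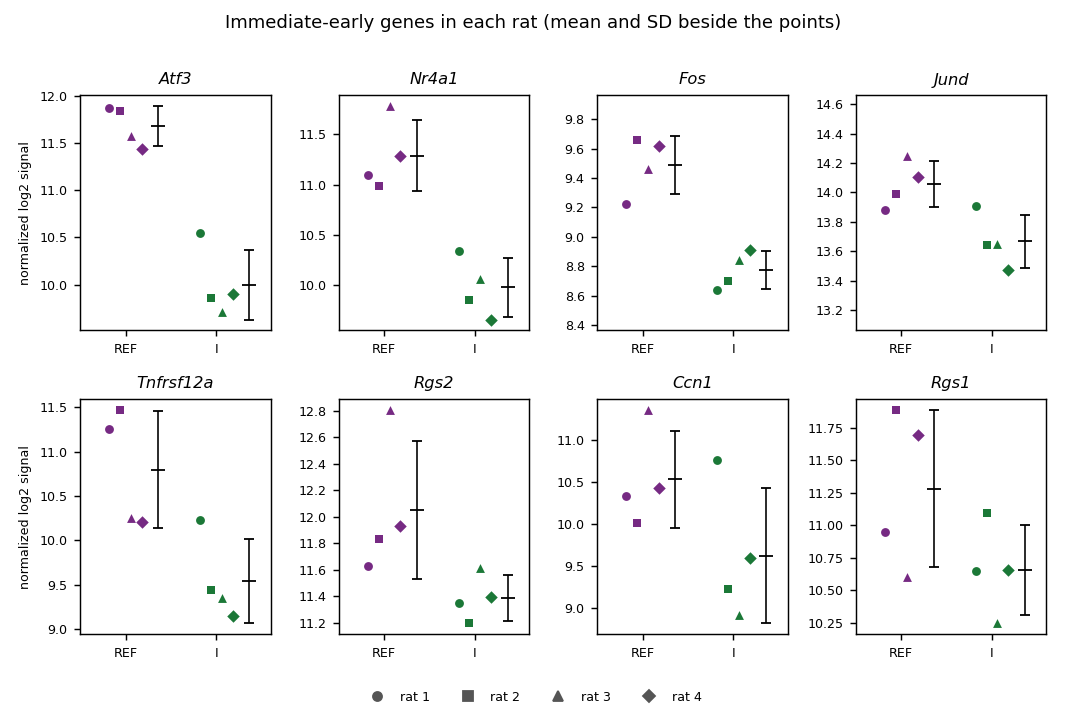
Normalized log2 signal of 8 genes of the immediate-early and stress-response list in each REF (purple) and I (green) rat, with a symbol for each rat number. The mean and SD of 4 rats stand beside the points, and each panel has its own vertical range. For Atf3, Nr4a1, Fos and Rgs2 all 4 I rats lie below all 4 REF rats, and for Jund, Tnfrsf12a, Ccn1 and Rgs1 the groups overlap.

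Many immediate-early promoters hold sites of the cAMP response element (CRE), read by the CREB and ATF family of factors, to which Atf3 itself belongs. In the RefSeq promoter windows of build GRCr8, 250 bases before the start of each gene, the core letters TGACG were present on either strand in 16 of the 24 list members with an entry and in 18.2 % of all 33469 promoters. On the opposite strand the core reads CGTCA. The full palindrome TGACGTCA, which holds the core on both strands and counts as 2 cores, was present in 4 of 24 and in 1.59 % of all. The list was counted with 1 promoter per measured gene, whereas the 33469 were all entries, without a limit to measured genes. The 2 shares are therefore of unlike sets. A match of letters describes the sequence and does not show that a factor was bound. Nr4a1 (chr7:134259888-134260137, plus strand, 4 cores) and Jund (chr16:18769772-18770021, minus strand, 3 cores with 1 palindrome) are shown because their signals were among the lowest p-values of the list, and Rcan1 (chr11:45118237-45118486, minus strand, 2 cores in 1 palindrome), whose values follow, because it was outside the list and had a p of the same order. The sequences run 5′ to 3′ on the strand of the gene, with the cores in capitals.
Nr4a1: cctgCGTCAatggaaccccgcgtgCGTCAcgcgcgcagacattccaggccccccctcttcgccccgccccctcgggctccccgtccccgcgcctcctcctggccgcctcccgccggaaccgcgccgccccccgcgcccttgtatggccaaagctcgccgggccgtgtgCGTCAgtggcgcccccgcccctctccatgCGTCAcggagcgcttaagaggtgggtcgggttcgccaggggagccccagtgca
Jund: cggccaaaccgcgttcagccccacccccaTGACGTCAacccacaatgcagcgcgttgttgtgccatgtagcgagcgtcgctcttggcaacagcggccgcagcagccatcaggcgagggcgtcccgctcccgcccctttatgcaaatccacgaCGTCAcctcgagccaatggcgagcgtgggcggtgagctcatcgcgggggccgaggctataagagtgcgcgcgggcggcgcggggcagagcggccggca
Rcan1: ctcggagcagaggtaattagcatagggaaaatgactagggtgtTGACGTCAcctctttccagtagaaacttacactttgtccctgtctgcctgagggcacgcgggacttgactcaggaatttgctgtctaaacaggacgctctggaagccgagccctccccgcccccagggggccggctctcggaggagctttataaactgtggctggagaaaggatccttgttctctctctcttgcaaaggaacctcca
Fos and Atf3 had no entry. Among other list members with a low p, Tnfrsf12a (unadjusted p 0.00074 in limma) had 0 cores and Rgs2 (0.0054) had 1 core. Neither of these 2 promoters is shown.

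The lowest p of all genes belonged to Cdc42ep3, an effector of the small GTPase Cdc42 that shapes actin, at 9.86, 9.66, 9.82 and 9.68 in the I rats and at 10.14, 10.31, 10.25 and 10.12 in the REF rats. This difference was small and even, -0.44 (SE 0.07, unadjusted p 2.43e-05, adjusted p 0.483 in limma), and was -0.43 and -0.45 within arrays 7 and 8. Rcan1, an inhibitor of calcineurin that calcium signalling induces, differed by -0.62 (SE 0.13), with I rats at 10.63 to 11.09 and REF rats at 11.14 to 11.96. Apln, the ligand of the apelin receptor in blood vessels, was at 7.29 to 7.597 in I rats and at 7.78 to 8.21 in REF rats (-0.48, SE 0.10). Nrm, which encodes an inner nuclear membrane protein (-0.41, SE 0.08), and Abra, which encodes an actin-binding protein, were also lower in every I rat than in any REF rat. Abra was above background in only 2 of the 4 I rats, so that the size of its difference depended on the background correction: -0.33 (SE 0.07) as fitted, -0.80 without the offset and -1.33 with software-processed signals.

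Rec114, known for a role in meiotic recombination, was not well above background in any I rat (6.30, 6.01, 6.28 and 6.19) and was at 7.69, 8.16, 6.996 and 7.51 in the REF rats. By the means of the rats, its signal in I was 2.63-fold lower, and the fitted difference was -1.30 (SE 0.27, adjusted p 0.522 in limma). That difference was -1.03 in arrays 5 to 8, with -0.71 on array 7 and -1.32 on array 8. With software-processed signals it was -3.72, so its size depended on the treatment of low signals. Serpina10, a serpin that inhibits activated coagulation factor X, had the most negative difference of all genes with a symbol, -2.03 (SE 0.81). It was at 6.30, 6.94, 6.27 and 6.78 in the I rats, above background in 2 of them, and at 7.52, 10.79, 7.12 and 9.11 in the REF rats. The REF rats themselves spread over more than the distance between the diets, and without REF rat 2 the difference was -1.38. Other coagulation genes differed less. Tissue factor (F3), the trigger of clotting, was at 9.74 to 10.28 in I rats and at 10.34 to 10.80 in REF rats (-0.53, SE 0.16). Of the 21 measured coagulation genes and serpins, 10 were higher and 11 lower, with a median of -0.05. At an unadjusted p below 0.05, 4 were lower and 1 was higher (23.8 % of the list against 5.71 % of all genes).

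The remaining symbols that were at least 2-fold lower in I overlapped between the diets. Ros1, a receptor tyrosine kinase, was at 7.01, 6.87, 6.38 and 8.18 in the I rats and at 8.36, 9.32, 7.19 and 9.03 in the REF rats (-1.10, SE 0.40). Ces1d, a carboxylesterase, was at 7.59 to 8.59 and at 8.15 to 9.51 (-1.02, SE 0.47), with -0.65 in arrays 5 to 8. Serpina3n, an acute-phase serpin, was at 7.76 to 11.64 and at 8.85 to 11.94 (-1.07, SE 0.72), and leaving out 1 rat moved its difference from -1.78 to -0.48, the latter without I rat 3. For Cmahp (-1.15, SE 0.74) the difference came from I rat 4, at 8.79 against 11.10 to 11.48 in the other I rats and 11.19 to 11.60 in REF, and it was -0.39 without that rat. Fam111a (-1.01, SE 0.78) was at 7.86, 7.65, 7.54 and 9.94 in the I rats and at 9.85, 10.68, 9.01 and 7.995 in the REF rats. The sign of Fam111a differed between arrays 7 (-1.47) and 8 (1.95).

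Among the genes higher in I, the lowest p with a symbol was that of Nr1d1, the REV-ERBα repressor of the circadian clock. It was at 6.62, 7.29, 7.34 and 7.67 in the I rats and at 6.31, 6.25, 6.74 and 6.50 in the REF rats, with only I rat 1 inside the REF range (0.78, SE 0.17, adjusted p 0.595 in limma). These signals were low, and Nr1d1 was above background in 3 of the 4 REF rats. The difference was 1.46 without the offset of the background correction and 1.998 with software-processed signals. Its relative Nr1d2 was above background in 4 of 4 I rats but in only 1 REF rat, and its difference is not given as a size, since it ranged from 0.15 to 1.24 over the alternatives. Of the 14 clock genes measured, 8 were higher and 6 lower with a median of 0.01, and the activators of the clock did not follow: Bmal1 differed by 0.00 and Clock by 0.02. Per2, a clock repressor, differed by -0.31 (SE 0.21).

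Hk2 and Egln3 followed. Hk2, the hexokinase that starts glycolysis, was at 9.02, 9.68, 9.90 and 9.52 in the I rats and at 9.20, 8.91, 8.85 and 8.90 in the REF rats, so that I rat 1 lay within the REF range and the other 3 above it (0.66, SE 0.16). Egln3, a prolyl hydroxylase that marks hypoxia-inducible factor for destruction, was at 9.91, 10.91, 10.65 and 10.89 in the I rats and at 10.08, 10.01, 9.46 and 10.26 in the REF rats (0.73, SE 0.18). Banp, whose nuclear protein binds CpG-rich promoters, was at 10.55, 10.59, 10.50 and 10.75 in the I rats and at 9.71, 9.82, 10.16 and 9.91 in the REF rats (0.64, SE 0.17), and Fxr1, an RNA-binding protein, at 10.20 to 10.32 and at 9.89 to 9.96 (0.30, SE 0.07). Both genes were higher in every I rat than in any REF rat. Ncl, nucleolin of the nucleolus, was at 12.68 to 12.73 in the I rats and at 12.05 to 12.56 in the REF rats (0.35, SE 0.09, and 0.19 without REF rat 3). The other genes among the 10 with the lowest p were Mtmr4 (0.38, SE 0.09), a lipid phosphatase of endosomes, Foxk1 (0.30, SE 0.08), a forkhead factor, Rabgap1 (0.38, SE 0.10), an activator of Rab GTPases, and Mmp13 (0.35, SE 0.09), a collagenase. The diets overlapped for all of these but Mtmr4, in which the lowest I rat (8.55) was just above the highest REF rat (8.54).

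Globin genes had higher signals in the I rats, although none passed the adjusted threshold of limma and rank product picked 0 of the 10 red cell genes measured. The β-globin gene Hbb was at 13.68, 13.56, 13.52 and 13.98 in the I rats and at 13.23, 12.92, 13.21 and 12.90 in the REF rats (0.65, SE 0.21, adjusted p 0.805 in limma), without overlap. Hbb-b1 (0.60, SE 0.21), Hbb-bs (0.62, SE 0.23) and Hba-a1 (0.52, SE 0.22) were also higher in every I rat, but globin genes are near-identical copies whose probes can share transcripts, so these are not separate observations. Alas2, the enzyme that starts haem synthesis in red cell precursors, was at 7.89, 7.90, 7.76 and 8.06 in the I rats and at 7.86, 7.47, 7.43 and 7.38 in the REF rats (0.44, SE 0.19), with REF rat 1 inside the I range. Of these 10 genes, 7 were higher and 3 lower, 5 of the higher ones at an unadjusted p below 0.05 (against 5.71 % of all genes), with a median of 0.38. Within arrays 5 to 8 the median was 0.49, and without REF rat 4 it was 0.21. Ahsp, the chaperone of α-globin, differed by -0.18 and Klf1, the master regulator of red cell genes, by -0.04. Whether the blood content of the pieces differed was not tested.

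Uptake and sensing of short-chain fatty acids were represented by 11 measured genes, of which 10 were higher in I with a median of 0.24. Any difference above 0 counted as higher. Slc5a8, the sodium-coupled carrier of butyrate, was at 9.52, 9.53, 9.56 and 9.71 in the I rats and at 9.41, 9.50, 9.29 and 9.29 in the REF rats. The groups did not overlap, but the gap was narrow, and the difference of 0.29 (SE 0.11, adjusted p 0.831 in limma) was the only one of the list at an unadjusted p below 0.05. The lactate and pyruvate carrier Slc16a3 differed by 0.27 (SE 0.14), the butyrate carrier Slc16a1 by 0.11 and its partner protein Bsg by 0.35. The receptors, the sensing part, did not share this direction to a measurable extent, with 0.02 for Ffar2, -0.06 for Ffar3 and 0.01 for Hcar2. The count of 10 is thus not one of uptake genes alone. Without REF rat 3 the median of the list was -0.03, so its direction rests on that rat.

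Among 31 genes of colonic ion and water transport, 19 were higher and 12 lower with a median of 0.06. Without REF rat 3, 10 were higher and 21 lower with a median of -0.105, and without I rat 4 the median was -0.019, so the direction rests on single rats. The largest differences were those of Aqp8, the water channel of surface colonocytes, and Clca4, of the family of calcium-activated chloride channel regulators. Aqp8 was at 10.37, 10.42, 11.10 and 11.28 in the I rats and at 10.92, 9.83, 9.26 and 10.06 in the REF rats (1.198, SE 0.41), so that REF rat 1 lay among the I rats. On arrays 7 and 8 the I rat was higher by 1.84 and 1.22. Clca4 was at 13.09, 13.54, 12.45 and 12.75 in the I rats and at 12.42, 11.95, 11.04 and 12.81 in the REF rats (1.16, SE 0.54), and the difference was 1.41 on array 7 but -0.06 on array 8. Kcnn4, a potassium channel that drives secretion, differed by -0.20 (SE 0.09). The 3 epithelial sodium channel subunits differed by -0.12 (Scnn1a), 0.04 (Scnn1b) and 0.19 (Scnn1g).

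Tight junction genes were not shifted as a group, with 12 of 19 higher and a median of 0.02, but 3 claudins had an unadjusted p below 0.05 in different directions (15.8 % of the list against 5.71 % of all genes). Cldn4, a sealing claudin of the surface epithelium, was at 12.17, 12.57, 12.73 and 12.33 in the I rats and at 11.80, 12.04, 11.95 and 12.15 in the REF rats (0.66, SE 0.28). Cldn8, a claudin of the distal colon, was at 7.98, 8.42, 8.42 and 8.28 in the I rats and at 8.53, 8.60, 8.82 and 8.56 in the REF rats (-0.33, SE 0.10). Neither overlapped between the diets. The pore-forming Cldn2 was at 9.71 to 10.05 in the I rats and at 9.998 to 10.48 in the REF rats (-0.33, SE 0.11).

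**Figure D3:**
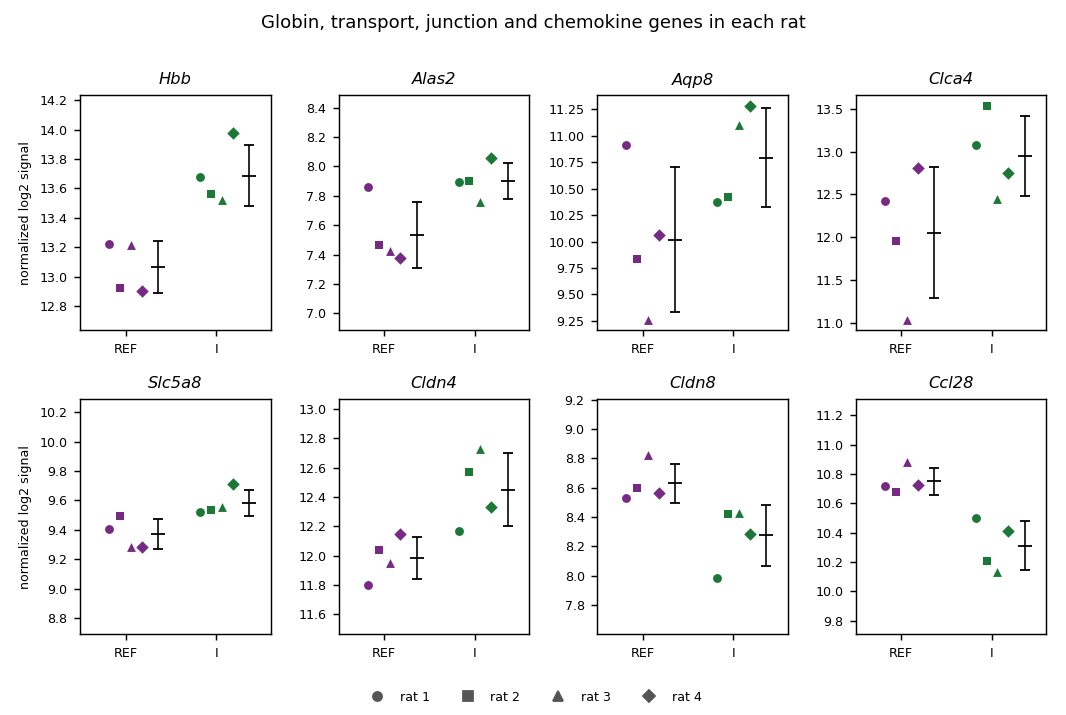
Normalized log2 signal of 8 genes of blood, transport, cell junctions and IgA cell homing in each REF (purple) and I (green) rat, with a symbol for each rat number and the mean and SD of 4 rats beside the points; each panel has its own vertical range. Hbb, Slc5a8 and Cldn4 are higher in all 4 I rats and Cldn8 and Ccl28 lower, whereas Alas2, Aqp8 and Clca4 overlap.

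Resistin-like genes were among those with the largest positive differences and varied widely among rats. Retnlb, the symbol with the largest positive difference, whose antibacterial product RELMβ is secreted by goblet cells, was at 15.83, 12.67, 15.98 and 16.28 in the I rats and at 14.56, 13.25, 15.08 and 10.60 in the REF rats. Its difference was 2.08 (SE 1.11, adjusted p 0.903 in limma), 0.70 without REF rat 4 and 2.98 in arrays 5 to 8. Retnla, a relative made by macrophages and epithelium, was at 12.64, 9.74, 12.92 and 12.46 in the I rats and at 11.09, 10.27, 12.69 and 8.72 in the REF rats (1.34, SE 0.90), and 0.41 without REF rat 4. Retnlg, made by myeloid cells, had a smaller spread (11.26 to 12.09 in I and 10.97 to 11.38 in REF) and a difference of 0.51 (SE 0.26). Retn itself differed by -0.19. In Retnlb and Retnla the lowest rat of each diet was the rat of that diet with the lowest Hoxb13, I rat 2 and REF rat 4. With both of these rats left out, the difference was 1.33 for Retnlb and 0.95 for Retnla, and with scores of posterior Hox and B-cell genes as terms it was 1.18 and 0.63.

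Sval1 and Mptx1 were low in the same pieces. Sval1, a seminal vesicle antigen-like gene, was at 13.72, 11.33, 14.07 and 13.52 in the I rats and at 13.33, 13.46, 14.60 and 5.56 in the REF rats (1.45, SE 1.74). Mptx1, a pentraxin of the intestinal mucosa, was at 16.54, 11.09, 15.74 and 16.87 in the I rats and at 16.59, 13.01, 15.97 and 10.35 in the REF rats (1.08, SE 1.70). The difference of Hoxb13 itself was 1.08 (SE 1.37). Without I rat 2 and REF rat 4 these became -1.12 for Sval1, 0.39 for Mptx1 and -0.62 for Hoxb13. The identifiers with the largest positive differences were ENSRNOT00000061381 (2.10, SE 1.01) and ENSRNOT00000066209 (1.69, SE 0.81).

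**Figure D4:**
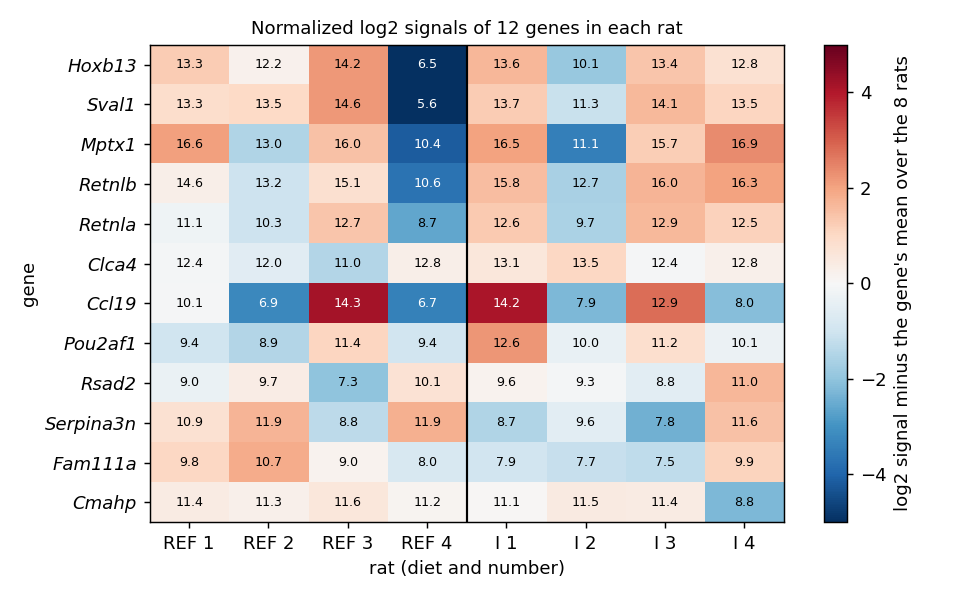
Normalized log2 signal (numbers) of 12 genes, most of them at least 2-fold apart, in each REF and I rat, with colours for the signal minus the mean of the gene over the 8 rats. REF rat 4 is the lowest for Hoxb13, Sval1, Mptx1, Retnlb and Retnla, and Ccl19 and Pou2af1 vary among rats of the same diet.

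Lymphoid genes were mostly higher in I by small amounts and varied with the piece. Of 17 measured B-cell genes 16 were higher, with a median of 0.24, and 0 had an unadjusted p below 0.05 in limma. T-cell genes (20 of 21 higher, median 0.20) and genes of MHC class II presentation (12 of 13 higher, median 0.29) shared the direction. Pou2af1, a B-cell coactivator needed for antibody responses, was the only 2-fold higher lymphoid gene, at 12.57, 9.99, 11.22 and 10.06 in the I rats and at 9.36, 8.89, 11.43 and 9.43 in the REF rats (1.08, SE 0.84). Its highest rats were I 1, I 3 and REF 3, and the difference was 0.59 without REF rat 1 and 0.31 in arrays 5 to 8, with -0.21 on array 7. Ccl19, which guides T cells and dendritic cells into lymphoid tissue, was highest in the same rats (14.22 in I 1, 12.94 in I 3 and 14.32 in REF 3, against 6.74 to 10.09 in the others) and differed by 0.84 (SE 1.59), or by 0.037 in arrays 5 to 8.

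Plasma cell genes and IgA transport comprised 16 measured genes, 12 of them higher, with a median of 0.13. Ccl28, the mucosal chemokine that draws IgA plasma cells to the colon, was lower in every I rat (10.50, 10.21, 10.13 and 10.41) than in any REF rat (10.71, 10.68, 10.88 and 10.72), with a difference of -0.47 (SE 0.10, unadjusted p 0.00038, adjusted p 0.522 in limma). Its receptor Ccr10 differed by 0.37 and the IgA transporter Pigr by 0.34 (SE 0.16). Prdm1, the plasma cell master regulator, was at 7.75 to 8.15 in I rats and at 7.49 to 7.94 in REF rats (0.36, SE 0.11), and Derl3, of the secretory pathway, at 8.53 to 9.64 and at 8.18 to 9.25 (0.52, SE 0.21). Mzb1 (0.65, SE 0.39) and Tnfrsf17, the BCMA receptor of plasma cells (0.48, SE 0.37), overlapped widely. In arrays 5 to 8 alone the differences were 0.16 for Derl3, 0.025 for Mzb1 and -0.022 for Tnfrsf17.

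Interferon-response genes had a median of 0.08, with 16 of 27 higher. Cxcl10, a chemokine for T cells, was at 7.78, 8.58, 9.01 and 9.17 in the I rats and at 7.99, 8.36, 7.90 and 8.02 in the REF rats (0.71, SE 0.21), and Rsad2, an antiviral enzyme, at 9.55, 9.28, 8.83 and 11.03 and at 9.01, 9.73, 7.35 and 10.10 (1.07, SE 0.58, and 0.55 without REF rat 3). The cytotoxic granule protein Gzmb differed by 0.37 (SE 0.16) and Cx3cr1, the receptor of resident macrophages, by 0.31 (SE 0.13). Of 17 macrophage genes, 15 were higher, with a median of 0.12. Mast cell genes were spread to both sides, with 10 of 17 higher, 0 at an unadjusted p below 0.05 in limma and a median of 0.06, and Fcer1a, the IgE receptor chain of mast cells, differed by -0.17 (SE 0.11).

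Proliferation genes were lower almost throughout, by small amounts. Of 23 measured, 22 were lower in I, 7 of them at an unadjusted p below 0.05 (30.4 % of the list against 5.71 % of all genes), with a median of -0.21, and none was 2-fold apart or separated the diets. Pcna, the clamp of DNA polymerase, was at 11.19 to 11.35 in I rats and at 11.34 to 11.57 in REF rats (-0.21, SE 0.07). Ccne1, the cyclin that starts DNA synthesis, differed by -0.33 (SE 0.12), Cdk1, the mitotic kinase, by -0.32 (SE 0.13), and Ube2c, which drives exit from mitosis, by -0.33 (SE 0.13). In arrays 5 to 8 alone, 20 of 23 were lower and the median was -0.17, and without I rat 3 it was -0.11.

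Genes of the smooth muscle of the wall were lower in 19 of 20 cases with a median of -0.31, but with a single unadjusted p below 0.05, that of the small heat shock protein gene Hspb7 (-0.29, SE 0.09). Myh11, the smooth muscle myosin, was at 14.98 to 15.71 in the I rats and at 15.25 to 15.95 in the REF rats (-0.33, SE 0.39). The mean log2 signal of the list was 12.08 to 12.44 in the I rats and 12.11 to 12.87 in the REF rats, and within arrays 5 to 8 the median was -0.10. It was -0.63 without REF rat 3 and -0.15 without REF rat 1. The fat cell hormone gene Adipoq, another sign of tissue outside the mucosa, was at 7.49 to 10.12 in the I rats and at 7.93 to 10.63 in the REF rats (-0.37, SE 0.63), and differed by -0.87 in arrays 5 to 8 and by 0.24 without I rat 4. Respiratory chain genes were lower in 25 of 34 cases with a median of -0.07, which was -0.02 in arrays 5 to 8, with 20 of 34 lower. An unadjusted limma p below 0.05 was seen for 3 (8.82 % against 5.71 % of all genes). The largest of these 3 differences was that of Ndufb8 of complex I (-0.27, SE 0.08). Genes of sterol synthesis were lower in 22 of 25 cases with a median of -0.11, which was -0.01 in arrays 5 to 8, with 13 of 25 lower. Scd2, a fatty acid desaturase, differed by -0.41 (SE 0.13), and Angptl4, an inhibitor of lipoprotein lipase that fatty acids induce, by 0.78 (SE 0.28), with 8.16 to 8.64 in the I rats and 7.199 to 8.51 in the REF rats.

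**Figure D5:**
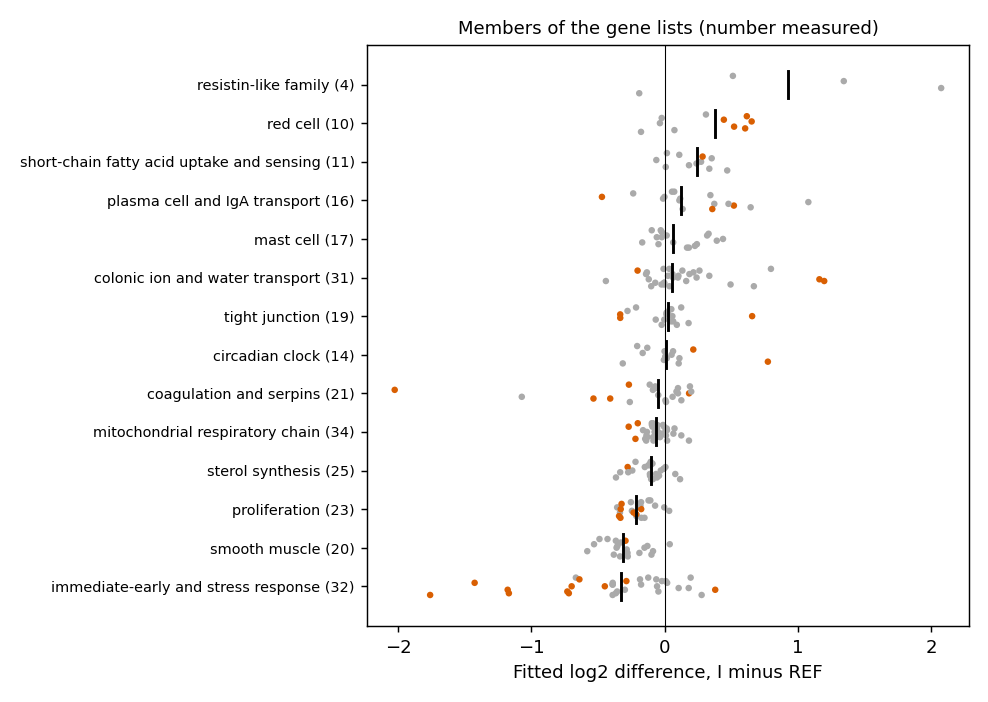
Fitted log2 difference (I minus REF) of each measured member of 14 gene lists, in orange where the unadjusted limma p was below 0.05 and in gray otherwise, with a black bar at the median and the number of members in brackets. Immediate-early genes have the lowest median, -0.33, the single member furthest to the left is Serpina10 of the coagulation list at -2.03, proliferation genes lie close together on the left, and red cell genes are on the right with a median of 0.38.

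Of 23 measured genes that the study discussed for its diets, rank product picked 3 as higher in I, against 0.136 % of all genes. Rank product picked 10 of the set as lower, against 0.221 % of all genes. The study chose the genes it reported on these same samples, so the counts are not independent of them. Tac4, a tachykinin, differed by -0.83 (SE 0.55), Bpifb2, a secreted lipid-binding protein, by -0.89 (SE 0.57), and Gkn2, a gastric peptide, by -0.84 (SE 0.56), each with the highest signals in REF rats 2 and 4. Without REF rat 4 these became -0.40, -0.43 and -0.34. Pzp, a protease inhibitor of plasma, differed by -0.62 (SE 0.78) and Apoa4, an apolipoprotein of the absorbing gut, by -0.51 (SE 0.54). All 5 were picked by rank product as lower in I, with estimated shares of false positives of 0.00538 for Tac4, 0.00364 for Bpifb2, 0.0133 for Gkn2, 0.016 for Pzp and 0.0192 for Apoa4. The differences of Scgb1a1, a secretoglobin (0.38, SE 0.70), Rnase1, a secreted ribonuclease (0.59, SE 0.68), Fabp1, a fatty acid carrier (0.04, SE 0.56), and Scnn1g (0.19, SE 0.55) were smaller than their errors. Ly49i2, a receptor of natural killer cells, was above background in 1 of 4 I rats and in 4 of 4 REF rats. Its difference of -0.56 (SE 0.21) depended on the treatment of low signals, with -2.34 for software-processed signals, and was -0.35 without REF rat 1. Vom2r3, Mcpt2 and Spink4 were not analysed here.

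Against the other fiber diets, the same fit called 0 genes (0 %) between I and CF and 32 genes (0.161 %) between I and C10. These comparisons share the REF rats or the I rats, so values are given side by side. For Atf3 the difference from REF was -1.76 in I, -1.18 in CF and -1.65 in C10, for Fos it was -0.72, -0.73 and -0.50, and for Cdc42ep3 -0.44, -0.38 and -0.46. Nr4a1 was at -1.43, -0.64 and -0.68, and Jund at -0.45, -0.24 and -0.03. For Hbb the values were 0.65, 0.89 and 0.69, for Aqp8 1.198, 1.16 and 0.88, for Ccl28 -0.47, -0.54 and 0.09, and for Slc5a8 0.29, -0.15 and 0.16. The median of the immediate-early list was -0.33 in I, -0.09 in CF and -0.09 in C10. The lists of proliferation, red cell, smooth muscle and sterol synthesis genes were at least as far from REF in another diet. The medians were -0.21, -0.30 and -0.10 for proliferation, and 0.38, 0.56 and 0.65 for red cell genes. They were -0.31, -0.24 and -0.75 for smooth muscle, and -0.11, -0.25 and -0.28 for sterol synthesis. For short-chain fatty acid uptake and sensing they were 0.24, 0.06 and 0.09, so this list was furthest from REF in I. Without REF rat 3 its median in I was -0.03. None of the single genes named in this paragraph was called between I and CF, each with an adjusted p of 0.9998 in limma.

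All 32 genes called between I and C10 were higher in I, and mast cell proteases led them. Mcpt1 was higher in I than in C10 by 2.93 (SE 0.35, adjusted p 0.00354 in limma), Mcpt8 by 2.10 (SE 0.29), Mcpt10 by 1.94 (SE 0.22) and Cpa3, a carboxypeptidase of mast cell granules, by 1.59 (SE 0.28). Hdc, the enzyme that makes histamine, was higher by 1.06 (SE 0.08, adjusted p 9.25e-05 in limma). The I rats themselves were at 12.29, 12.44, 12.59 and 12.31 for Mcpt1 and the REF rats at 12.28, 11.78, 12.16 and 12.31 (0.44, SE 0.32), whereas the C10 difference from REF was -2.49. Retnlg was also higher in I than in C10, by 2.08 (SE 0.28, adjusted p 0.00601 in limma). C10 and I rats were never on the same array, so a difference between them cannot be told apart from that between the arrays except through REF and CF.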

How the data were processed

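Colon RNA of 16 rats, 4 per diet, was measured on 8 two-colour Agilent arrays. The authors scanned them with Feature Extraction 10.7.3.1 and deposited, for each dye, the median intensity of 62976 spots and of their local background, without normalization. The processed intensities in the same deposited output entered an alternative, and a normalized log2 table with 8 columns that name no array was left unused. Diet, rat and dye came from the sample labels, which give each rat 1 array.

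Intensities were corrected with limma 3.58.1 in R 4.3.3 by normexp (offset 50), spatial loess (span 0.4), intensity loess (span 0.3) and Aquantile between arrays, steps that the methods name without these settings. Spots of the same probe were averaged as log2 signals, per dye. Probes well above background in at least 4 of 16 rats were kept (22539 of 30367), and the brightest probe stood for each gene, 11922 under a current RefSeq symbol and 7979 under the array identifier. The number of arrays limits the precision. All 16 rats were fitted with diet and dye terms, rats of an array being correlated (0.42), and limma's eBayes p-values were adjusted by Benjamini-Hochberg over all genes. The fit was also run on simulated data. Their noise was drawn separately for each gene, without the differences among pieces, and no result here rests on them. All arrays lay on 1 slide read in 1 scan, in rows of 4 that entered an alternative. Non-overlap was counted on signals without the dye term. Permutation tests of single genes were exact and two-sided.

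Gene lists and members were chosen with earlier results of these data known. The genes named were those with a symbol at least 2-fold apart and the 10 with the lowest p in each direction. Genes of the set drawn up around those of the study were named too, as were markers of the piece. From each list described came up to 4 members with the lowest p, and other members for their role. A few genes that this rule names are not reported here. Alternatives covered background correction, normalization, filter, probe rule, model terms, the rats included and rank product with 100 permutations, the test named in the methods.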

Additional observations from a re-analysis of the deposited data

Results flagged for a closer look

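In 168 groups of 4 rats (both diets for each gene named), a single rat lay far from the other 3 by Dixon's test in 9; chance gives about 1 in 20 groups. All values are normalized log2 signals. REF rat 4 was at 5.56 for Sval1, against 13.33 to 14.60 in the other REF rats. I rat 2 was at 12.67 for Retnlb, against 15.83 to 16.28 in the other I rats, and at 9.74 for Retnla, against 12.46 to 12.92. These are the rats of their diet with the lowest Hoxb13. I rat 4 was at 8.79 for Cmahp, against 11.10 to 11.48, at 9.94 for Fam111a, against 7.54 to 7.86, at 15.36 for Hba-a1, against 14.77 to 14.85, and at 7.87 for Nrm, against 7.74 to 7.75. I rat 1 was at 7.77 for Rabgap1, against 8.22 to 8.27, and REF rat 1 at 9.20 for Hk2, against 8.85 to 8.91.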

How the results depend on the processing

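Of 2008 values of 84 named genes under the alternatives, 1977 had the sign reported above, and 71 genes kept it in all. The number of genes called was 0 except in the 8 I and REF rats alone (4), in arrays 5 to 8 alone (1, A_64_P151259) and with rank product (30, with 16 higher and 14 lower); leaving out 1 rat gave 0 to 0. Genes at least 2-fold apart, 36 above, numbered 120 with software-processed signals, 23 with scores of posterior Hox and B-cell genes added to the model, and 28 to 99 with 1 rat left out, the highest without REF rat 3. Genes without overlap, 563 above, numbered 187 without normalization between arrays, 1744 without I rat 2 and REF rat 4, and 729 to 2743 with 1 rat left out, where fewer rats have to be separated. The alternatives with such scores, without I rat 2 and REF rat 4, and with the 8 rats at the correlation of all 16 were chosen after seeing the data.

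The sign differed as follows, and the cause was not tested. In arrays 5 to 8, Fam111a was at 0.076, Tnfrsf17 at -0.022 and Myh11 at 0.023. Without I rat 2 and REF rat 4, Sval1 was at -1.12, Hoxb13 at -0.62 and Scnn1g at -0.26. With these scores in the model, Sval1 was at -0.031, Mptx1 at -0.25, Ccl19 at -0.15 and Hoxb13 at -0.13. With log-ratios within arrays, Scgb1a1 was at -0.12 and Scnn1g at -0.045. Fabp1 was at -0.019 with software-processed signals, at -0.073 without the dye term and at -0.15 in the 8 rats with the correlation of all 16. With 1 rat left out, Sval1 ranged from -1.52 to 2.64, Mptx1 from -0.92 to 2.37, Hoxb13 from -1.31 to 2.21, Ccl19 from -0.019 to 2.58, Apoa4 from -0.99 to 0.10, Scgb1a1 from -0.082 to 0.77, Rnase1 from -0.21 to 1.29, Fabp1 from -0.71 to 0.58, Scnn1g from -0.071 to 0.37 and Adipoq from -0.73 to 0.24 (-0.82 without I rat 2 and REF rat 4). Of 14 lists, 8 kept the sign of their median throughout. Signals under 5.86 to 6.21 could not be told from background.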
